A study of Caenorhabditis elegans with 12 samples.

Results

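The proteasome subunit genes of *C. elegans* were taken as every gene in the table of normalized counts of N2 worms whose symbol starts with pas-, pbs-, rpn- or rpt-. The rule found 33 genes among the 46726 in the table. Of these, 14 encode the core particle (7 pas genes and 7 pbs genes) and 19 the regulatory particle (10 genes of its base and 9 of its lid). All 33 had a mean of at least 5 normalized counts and were among the 14965 genes tested.

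The proteasome is the protease that destroys proteins marked with chains of ubiquitin. Its core particle is a barrel in which outer rings of alpha subunits, encoded by the pas genes, gate the entrance, and inner rings of beta subunits, encoded by the pbs genes, hold the sites that cut peptides. The regulatory particle caps the barrel: its base, with a ring of ATPases encoded by the rpt genes, unfolds substrates and threads them inward, while its lid removes the ubiquitin. When proteasome function falls, the transcription factor SKN-1A raises the transcription of subunit genes in worms, so that the subunits are known as a group of genes that can be regulated together.

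The samples were late L1 larvae of the wild-type strain N2, fed *E. coli* in liquid culture at 20 °C. At 6 h after hatching, one synchronised culture was split into 6. The treated cultures (N2 with ascarosides) spent 3 h with synthetic ascr#8, ascr#2 and ascr#3 in ethanol, pheromones that induce the dauer diapause, at 5 µM in total by the sample labels. A lower concentration stands in the published methods. The control cultures (N2 without ascarosides) received ethanol alone. There were 3 libraries in each group, called treated libraries 1 to 3 and control libraries 4 to 6 after their column names. All 6 come from 1 starting population, so their spread measures differences between cultures and not between populations. Further libraries, of daf-22(ok693) worms, were not analysed here.

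Libraries held between 11133417 and 19116807 reads on genes, and the ribosomal RNA gene rrn-3.1 took 8.18% to 17.0% of them. A normalized count is the number of reads on a gene divided by a size factor for its library. Markers of intestine, body wall muscle, pharynx, epidermis, neurons and germ cells (21 genes) were all among the genes tested, whereas the 5 yolk genes of adults stayed at or below 14.9 normalized counts in every library and 2 of 3 sperm genes were at 0 in every library. Of the 21 tissue markers 1 passed an adjusted p of 0.05 in limma (3.52% of all genes did). It was the intestinal esterase gene ges-1 (log2 fold change 0.78). At an unadjusted p under 0.05, 4 markers were higher and 3 lower with ascarosides, where 8.05% of all genes were higher and 7.13% lower. The other intestinal markers lay on both sides of 0, with log2 fold changes of 0.11 for ifb-2, -0.16 for act-5 and -0.17 for elt-2. All 3 pharyngeal and all 3 germ cell markers were above 0, with median log2 fold changes of 0.22 and 0.16. The germ cell median was the value of pie-1, which rested on 20 to 50 reads a library. Over the alternatives the sign changed for pie-1 (-0.08 to 0.34) and for pha-4 of the pharynx (-0.01 to 0.31). It did not change for myo-1, myo-2, glh-1 and pgl-1. Above 0 too were 3 of 4 markers of body wall muscle and 3 of 4 of neurons. The exceptions were hlh-1 of muscle (-0.47, unadjusted p = 0.0126 in limma, groups not overlapping) and rab-3 of neurons (-0.07). The muscle markers myo-3, unc-54 and unc-15 had log2 fold changes of 0.49, 0.22 and 0.24. With control library 4 left out these were 0.66, 0.45 and 0.42, and that of hlh-1 was -0.46. All 3 epidermal markers (dpy-7, lin-26 and elt-1) were below 0 (median -0.25), 2 of them at an unadjusted p under 0.05. Their summed normalized counts lay between 2772 and 3015 in the treated libraries, against 3145 and 3722 in the control libraries. Most of that sum was dpy-7 (mean 2236, against 673 for lin-26 and 304 for elt-1). Treated and control values overlapped for lin-26 and elt-1 and not for dpy-7. The part of tissue makeup in the values of the subunits was not tested, and in whole larvae fewer cells of a type and less RNA per cell cannot be told apart.

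After 3 h with ascarosides, most proteasome subunit transcripts had slightly lower means than in control cultures, but none passed the test. The log2 fold change was below 0 for 30 of the 33 genes, including all 14 of the core particle and 16 of the 19 of the regulatory particle, against 49.7% of all genes tested. The largest difference was that of pas-4 (-0.38), and for 32 of the 33 genes the 95% interval of the log2 fold change lay between -0.62 and 0.36, the exception being the weakly expressed rpn-6.2. In limma with Benjamini-Hochberg adjustment over all genes, 0 of 33 subunit genes had an adjusted p under 0.05 (3.52% of all genes did). At an unadjusted p under 0.05 there were 5 subunit genes, pas-4, rpn-5, rpn-9, rpn-12 and rpt-6, all lower with ascarosides, where 7.13% of all genes were lower and 8.05% higher. Treated and control values did not overlap for 9 of 33 genes, all of them lower with ascarosides, where 9.53% of all genes did so in that direction.

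With edgeR on the recovered reads 0 of 33 also passed (3.60% of all genes did), and 5 had an unadjusted p under 0.05, all lower with ascarosides, where 7.08% of all genes were lower. With DESeq2 on the same reads 2 passed, pas-4 (adjusted p = 0.0317) and rpn-5 (adjusted p = 0.0329), where 4.24% of all genes did. After quantile normalization pas-4 (adjusted p = 0.0487 in limma) and rpn-5 (0.0371) passed, where 3.30% of all genes did, and 31 of 33 genes had a log2 fold change below 0.

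**Figure D1:**
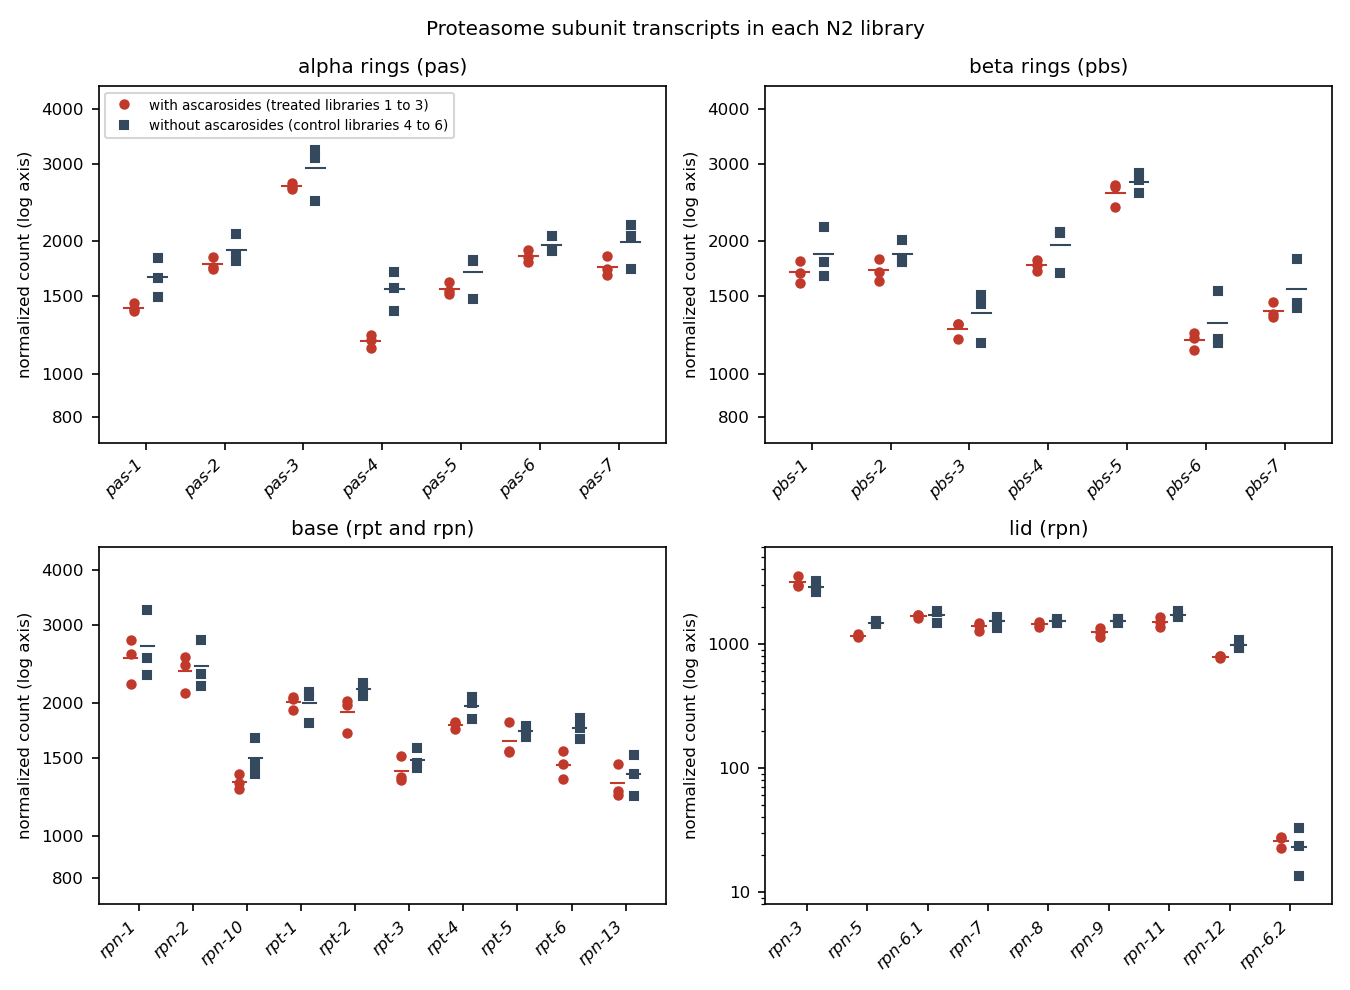
Normalized counts (log axis) of each subunit gene in the 3 libraries with ascarosides (circles, left of each pair) and the 3 without (squares, right), with a line at each group mean, in 4 panels for the alpha rings, beta rings, base and lid. For 32 genes the means over 6 libraries lie between 882 and 3024 normalized counts; rpn-6.2 stands far below the others. The groups are close together. For 9 genes, among them pas-4, rpn-5, rpn-9, rpn-12 and rpt-6, all treated circles lie below the control squares (9.53% of all genes tested were lower in this way).

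The core particle had a median log2 fold change of -0.13, ranging from -0.38 to -0.08, and the regulatory particle one of -0.09, ranging from -0.35 to 0.24. The regulatory median was -0.16 with quantile normalization and -0.16 without treated library 2. The median of all genes tested was 0.002. Among the 1936 other genes whose mean lay in the range of the 32 well expressed subunits, it was 0.04, and 40.7% of them had a log2 fold change below 0. By subcomplex, the medians were -0.13 for the alpha rings, -0.12 for the beta rings, -0.09 for the base and -0.13 for the lid. The 2 particles thus had overlapping ranges, and no test of a difference between them was made, because the genes are not replicates of a condition.

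**Figure D2:**
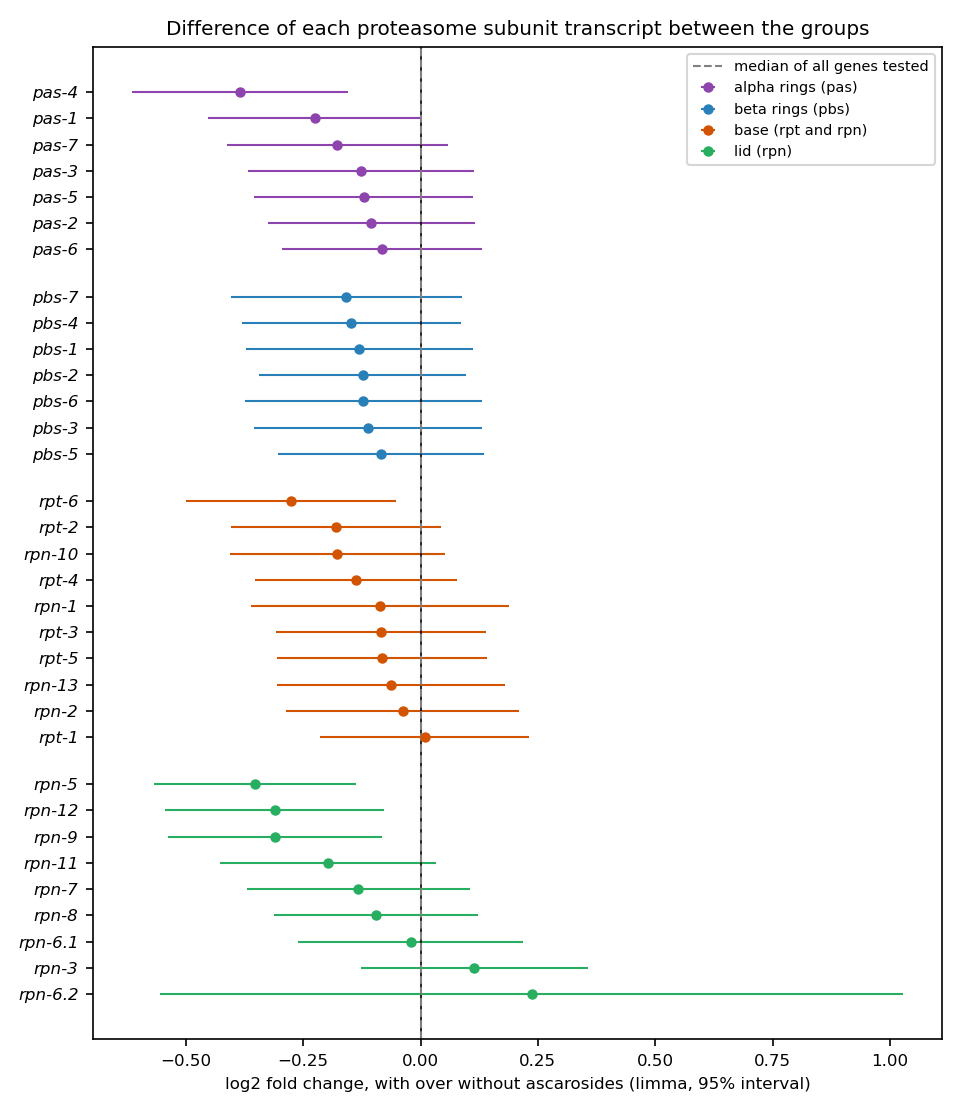
Log2 fold change of each subunit gene, with over without ascarosides, on the x axis, with its 95% interval from limma, grouped by subcomplex and sorted within it. The dashed line is the median of all genes tested (0.002). Most points lie left of 0, and the intervals of 28 genes include 0.

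In the alpha rings the gene with the lowest fold change was pas-4 (WBGene00003925). Its normalized counts were 1145, 1197 and 1224 in treated libraries 1 to 3, against 1392, 1708 and 1571 in control libraries 4 to 6. Every treated value was below every control value, and the group means were 1189 ± 40.1 with and 1557 ± 159 without ascarosides (SD, n = 3 each). In limma, on the log2 values of the libraries, the log2 fold change was -0.38, with a standard error of 0.109 and an adjusted p of 0.0653. That adjusted p ranged from 0.00377 to 0.304 over the alternatives.

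The next lowest alpha gene, pas-1 (WBGene00003922), was measured at 1404, 1453 and 1389.9 normalized counts in treated libraries, against 1499, 1831 and 1649.9 in the control libraries. These values did not overlap either, but the log2 fold change of -0.22 had an adjusted p of 0.336 in limma. At the other end were pas-2 and pas-6. The values of pas-2 (WBGene00003923) were 1747, 1847 and 1733 normalized counts in the treated libraries, against 1804, 2083 and 1850.4 in the control libraries. Those of pas-6 (WBGene00003927) were 1846, 1909 and 1793 in the treated libraries, against 1911, 2059.8 and 1904 in the control libraries. Both groups overlapped for these 2 genes, whose log2 fold changes were -0.10 and -0.08. For pas-3, pas-5 and pas-7 the groups also overlapped, with log2 fold changes from -0.18 to -0.12.

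In the beta rings all 7 genes had log2 fold changes between -0.16 and -0.08 with all libraries, and treated and control values overlapped for all 7. Without control library 5 these lay between -0.10 and 0.004, with a median of -0.04, and without control library 4 between -0.25 and -0.08, with a median of -0.18. The peptide-cutting subunits are encoded by pbs-1, pbs-2 and pbs-5. For pbs-1 (WBGene00003947), whose product cuts after acidic residues, there were 1613, 1806 and 1694 normalized counts in the treated libraries, against 1799, 2158 and 1667 in the control libraries. For pbs-2 (WBGene00003948), which encodes the trypsin-like site, there were 1628, 1708 and 1821 in the treated libraries, against 1815, 2009.6 and 1795 in the control libraries. Only in control library 5 did pbs-1 and pbs-2 exceed all treated values.

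The third catalytic gene, pbs-5 (WBGene00003951), which encodes the chymotrypsin-like site, had the highest level per kb of the beta genes. Its normalized counts were 2392, 2686 and 2652 in the treated libraries, against 2758, 2865 and 2571 in the control libraries. Log2 fold changes were -0.13 for pbs-1, -0.12 for pbs-2 and -0.08 for pbs-5, with adjusted p-values of 0.652, 0.637 and 0.764 in limma. Their 95% intervals all included 0 and together spanned -0.37 to 0.13. For pbs-1 the log2 fold change was -0.02 without control library 5 and -0.21 without control library 6.

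The other beta subunits form the ring without cutting peptides. The lowest of them were pbs-7 (WBGene00003953), with 1366, 1461 and 1349 normalized counts in the treated libraries, against 1414, 1826 and 1448 in the control libraries, and pbs-4. Only control library 5 exceeded all treated values of pbs-7. For pbs-4 (WBGene00003950) there were 1769.7, 1816 and 1709 normalized counts in the treated libraries, against 1698, 2092 and 2101 in the control libraries. Control library 4 was thus the lowest of all 6 for pbs-4, and the same held for pbs-3 (WBGene00003949), with 1203, 1301 and 1299 in the treated libraries, against 1177, 1509.6 and 1445 in the control libraries.

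The base of the regulatory particle holds the 6 ATPase genes, rpt-1 to rpt-6, of which 5 had a log2 fold change below 0. Only rpt-6 reached an unadjusted p under 0.05. For rpt-6 (WBGene00004506) there were 1344, 1451 and 1553 normalized counts in the treated libraries, against 1757, 1847 and 1657 in the control libraries. The groups did not overlap, at a log2 fold change of -0.28 (adjusted p = 0.20 in limma; 0.0977 to 0.598 over the alternatives). For rpt-2 (WBGene00004502) there were 1711, 2022 and 1979 in the treated libraries, against 2074, 2219 and 2167 in the control libraries. These groups did not overlap either, with a log2 fold change of -0.18 and an adjusted p of 0.462 in limma.

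In contrast rpt-1 (WBGene00004501) was nearly level between the groups. Its normalized counts were 2037, 2059 and 1926 in the treated libraries, against 2122, 2078 and 1800.0 in the control libraries. The log2 fold change was 0.01, with a 95% interval from -0.21 to 0.23. The values of rpt-3, rpt-4 and rpt-5 gave log2 fold changes from -0.14 to -0.08, and of these only the groups of rpt-4 did not overlap.

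Ubiquitin chains are received in the base by RPN-1, RPN-10 and RPN-13. For rpn-10 (WBGene00004466), which in worms also acts in germline sex determination, there were 1278, 1377 and 1314 normalized counts in the treated libraries, against 1382, 1667 and 1453 in the control libraries. The groups were apart by a narrow margin, and the log2 fold change was -0.18 (adjusted p = 0.482 in limma). For rpn-13 (WBGene00016981) there were 1239, 1455 and 1261 in the treated libraries, against 1379, 1527 and 1231 in the control libraries, with a log2 fold change of -0.06.

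The scaffold genes of the base behaved differently from the short core genes in one control library. For rpn-1 (WBGene00004458) there were 2206, 2782 and 2575 normalized counts in the treated libraries, against 3242, 2310.3 and 2527 in the control libraries. For rpn-2 (WBGene00004459) there were 2108, 2539.9 and 2432 in the treated libraries, against 2781, 2178 and 2329 in the control libraries. Both were highest in control library 4 and overlapped widely between the groups, with log2 fold changes of -0.09 and -0.04. Without control library 4 these became 0.05 and 0.06, neither past an adjusted p of 0.05.

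The lid held 3 of the 5 subunit genes at an unadjusted p under 0.05, rpn-5, rpn-9 and rpn-12, which all encode structural subunits of its horseshoe-shaped frame. For rpn-5 (WBGene00004461) there were 1139, 1204 and 1154 normalized counts in the treated libraries, against 1440.0, 1509 and 1519 in the control libraries. The gap between the groups was wider than the range within either of them. Group means were 1166 ± 34.4 with and 1489 ± 42.8 without ascarosides (SD, n = 3 each), at a log2 fold change of -0.35 with a standard error of 0.102 (adjusted p = 0.0702 in limma; 0.0165 to 0.306 over the alternatives). The range of its log2 fold change with any one library left out was -0.38 to -0.34.

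For rpn-12 (WBGene00004468) there were 794, 795 and 771 normalized counts in the treated libraries, against 921, 1076 and 938 in the control libraries. The treated values (SD 13.7, n = 3) were close together and below all controls, with a log2 fold change of -0.31 (adjusted p = 0.16 in limma; 0.0424 to 0.403 over the alternatives). For rpn-9 (WBGene00004465) there were 1133, 1354 and 1256 in the treated libraries, against 1585, 1581 and 1463 in the control libraries, which did not overlap. Its log2 fold change was also -0.31 (adjusted p = 0.152 in limma; 0.081 to 0.554 over the alternatives).

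The lid's enzyme is the metalloprotease RPN-11, which cuts ubiquitin from the substrate. For rpn-11 (WBGene00004467) there were 1377, 1650.1 and 1490.3 normalized counts in the treated libraries, against 1670.3, 1857 and 1648 in the control libraries, so that treated library 2 lay just above the lowest control. The log2 fold change was -0.20 (adjusted p = 0.424 in limma). In the other direction, rpn-3 (WBGene00004460) had 2975, 3542 and 2917 in the treated libraries, against 2889, 3196 and 2624 in the control libraries. Its log2 fold change of 0.11 (adjusted p = 0.701 in limma) was the highest of the 32 well expressed subunit genes. The lid genes rpn-7 and rpn-8 had log2 fold changes of -0.13 and -0.09 and overlapping groups.

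Worms have 2 genes for the lid subunit RPN-6. A raised level of rpn-6.1 is known to increase proteasome activity and stress resistance in adult worms. For rpn-6.1 (WBGene00004462) there were 1728, 1698 and 1605 normalized counts in the treated libraries, against 1846, 1822 and 1463 in the control libraries, a log2 fold change of -0.02 with a 95% interval from -0.26 to 0.22. Its paralogue rpn-6.2 (WBGene00010309) had 27.8, 22.8 and 27.4 in the treated libraries, against 32.7, 23.5 and 13.4 in the control libraries. This rests on 12 to 42 reads a library, and the 95% interval of the log2 fold change, -0.55 to 1.03, leaves its direction unresolved. Of the normalized counts on the pair, 1.43% were on rpn-6.2, and reads that aligned to several places were not counted on any gene.

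Levels between genes were compared per kb of annotated exon length, over all 6 libraries. The core genes lay between 1425 (pbs-6) and 3132 (pas-3) mean normalized counts per kb, with a median of 1909, and the regulatory genes other than rpn-6.2 between 756 (rpn-2) and 1629 (rpn-3), with a median of 1081. The 5 highest were pas-3, pbs-5 (2506), pbs-4 (2327), pas-2 (2190.1) and pbs-1 (2177), all of the core. Within the core the highest level was 2.20 times the lowest, and within the regulatory particle 2.15 times. The ranges of the particles overlapped at rpn-3, which lay above pas-1, pas-4, pbs-3 and pbs-6. At 15.8 mean normalized counts per kb rpn-6.2 was far below all other subunit genes. The core genes are shorter (801 to 1059 bases) than most regulatory genes (855 to 3171 bases), and the part of length in the difference of levels was not tested.

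Summed over the 14 core genes, there were 23126, 24599 and 23743 normalized counts in treated libraries 1 to 3, against 24153, 28899 and 26144 in control libraries 4 to 6. The sum averaged 23823 ± 740 with and 26399 ± 2383 without ascarosides (SD, n = 3 each). Summed over the 19 regulatory genes, there were 28481, 32049.5 and 29721 in the treated libraries, against 33378, 33509 and 30669 in the control libraries, averaging 30084 ± 1812 with and 32519 ± 1603 without ascarosides (SD, n = 3 each). Treated library 2 exceeded control library 4 in the core sum and control library 6 in the regulatory sum, so neither sum separated the groups.

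The ratio of the core sum to the regulatory sum was 0.812, 0.768 and 0.799 in treated libraries 1 to 3, against 0.724, 0.862 and 0.852 in control libraries 4 to 6. The treated ratios lay between those of the controls. Control library 5 held the highest value of all 6 libraries for 12 of 14 core genes and for 10 of 19 regulatory genes, while control library 4 held the highest for 6 regulatory genes and the lowest for 4 core genes.

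**Figure D3:**
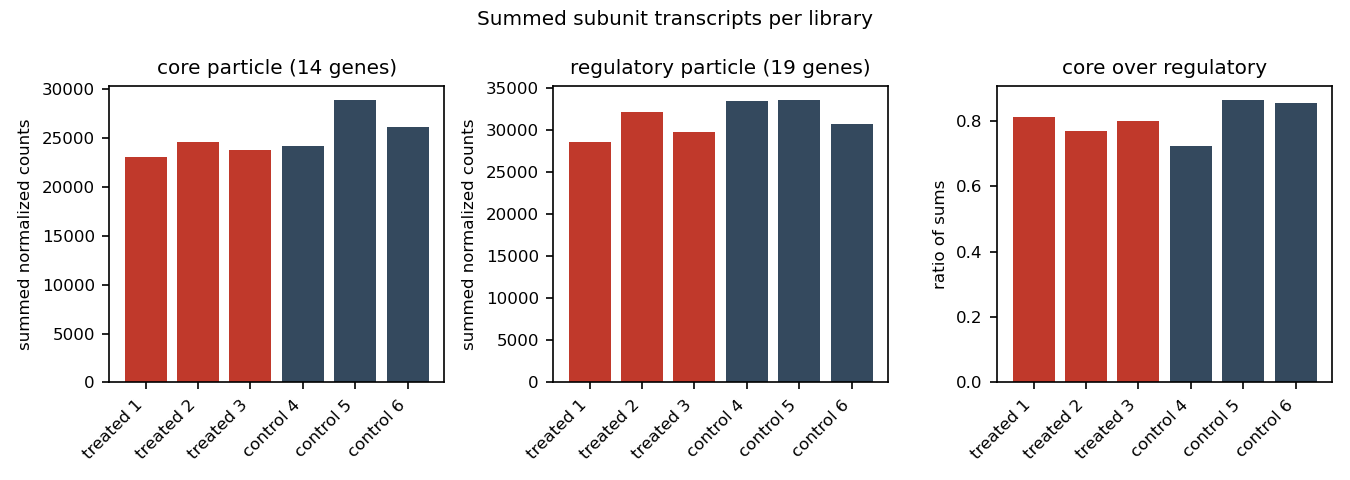
Summed normalized counts of the 14 core genes (left) and the 19 regulatory genes (middle), and the ratio of the 2 sums (right), one bar per library, treated libraries 1 to 3 before control libraries 4 to 6. Bars start at 0. The lowest ratio (0.724) and the highest (0.862) are both in control libraries.

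The spread of the core genes was unequal between the groups. Their median SD on the log2 scale was 0.056 in the treated libraries, against 0.171 in the control libraries (regulatory genes 0.104 with and 0.122 without ascarosides; all genes tested 0.152 with and 0.235 without). Control libraries 4 and 5 differed from each other in a way that went with gene length. All 14 core genes were higher in control library 5 than in control library 4, with a median log2 ratio of 0.29, and so were 12 of 19 regulatory genes (median 0.07), whereas the 3171 bases of rpn-1 and the 3166 bases of rpn-2 went with log2 ratios of -0.49 and -0.35. Across the 32 well expressed subunit genes Spearman's rho between exon length and this ratio was -0.80, a description of 2 libraries that all points share.

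Other genes in the same range of means had the same order: the median log2 ratio of control library 5 over control library 4 was 0.36 for 171 genes of up to 700 bases, 0.19 for 175 genes of over 700 and up to 1000 bases, and -0.31 for 586 genes of over 3000 bases. Between control libraries 5 and 6 the same medians were 0.07, 0.05 and -0.09.

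**Figure D4:**
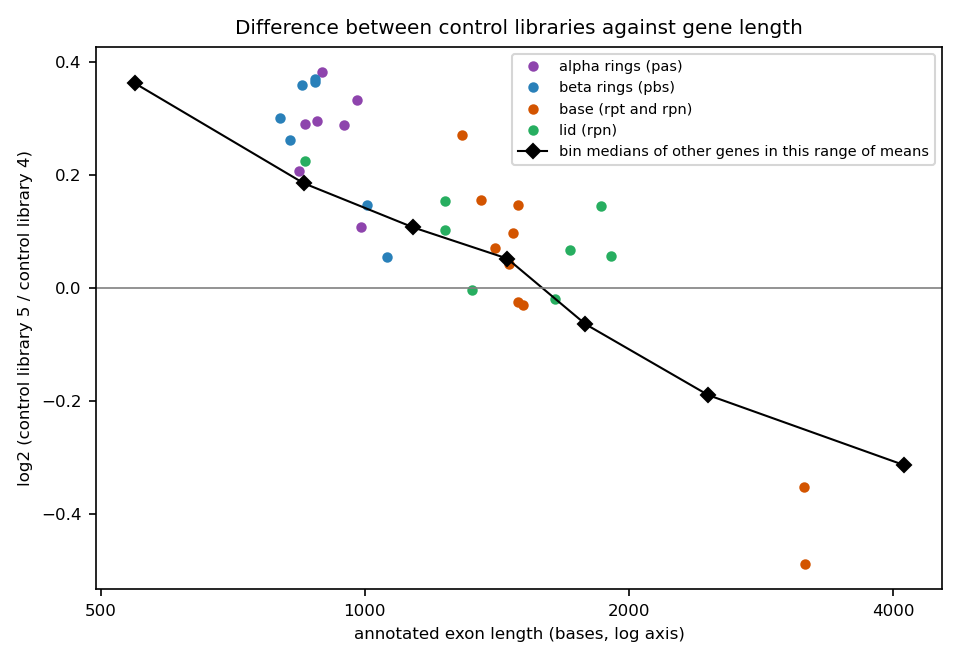
Log2 ratio of control library 5 over control library 4 (y axis) against annotated exon length (x axis, log scale) for 32 subunit genes, coloured by subcomplex, with the medians of 1936 other genes in 7 length bins (black diamonds). The short core genes lie above 0, and rpn-1 and rpn-2, at over 3000 bases, lie lowest.

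Leaving out control library 4 moved the core more than the regulatory particle. The median log2 fold change became -0.22 for the core and -0.12 for the regulatory particle (without control library 5 it was -0.05 for the core and -0.10 for the regulatory particle). Without control library 4 8 core and 7 regulatory genes had an unadjusted p under 0.05, all of them lower with ascarosides, where 11.4% of all genes were lower at that threshold. At an adjusted p under 0.05 there were then 3 subunit genes, pas-4 (0.00377), rpn-5 (0.0165) and rpn-12 (0.0424), while 9.60% of all genes passed.

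With the length trend of each library removed, an alternative chosen after the data were seen, the medians of the particles came close to each other, -0.11 for the core and -0.11 for the regulatory particle. In that fit 2 subunit genes had an adjusted p under 0.05, pas-4 (log2 fold change -0.37, adjusted p = 0.0215) and rpn-5 (-0.35, adjusted p = 0.023), where 4.99% of all genes passed. The number of genes with a log2 fold change below 0 was 30 of 33 as before.

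**Figure D5:**
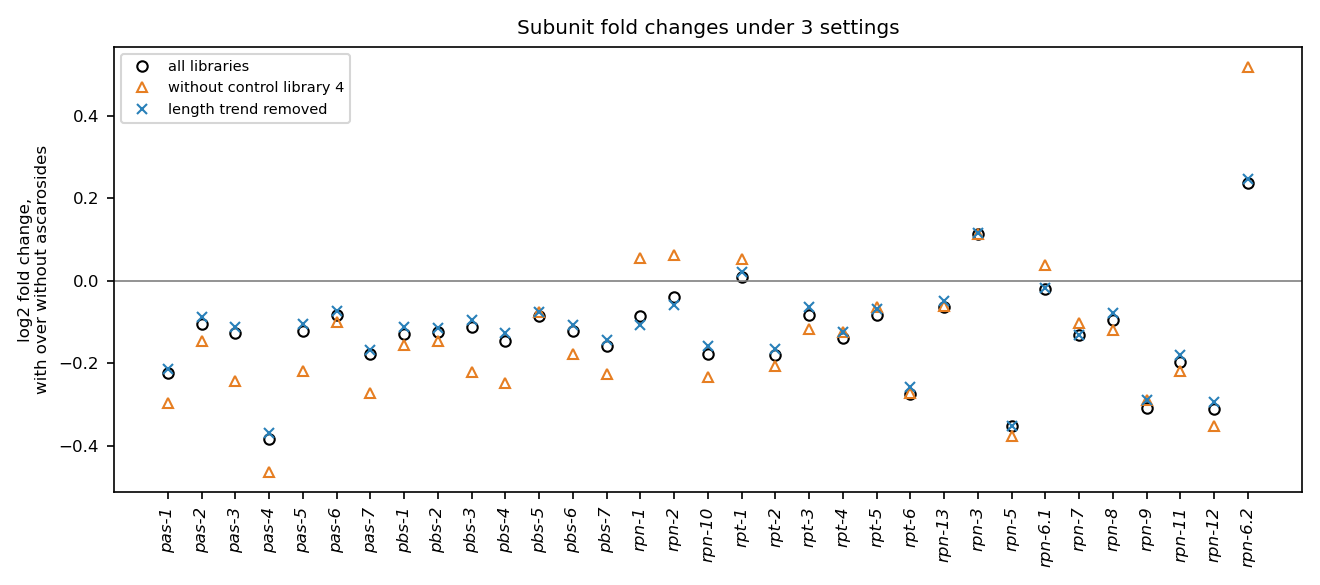
Log2 fold change, with over without ascarosides, of each of the 33 subunit genes with all libraries (circles), without control library 4 (triangles) and with the length trend of each library removed (crosses). The triangles of most core genes lie below their circles, those of rpn-1 and rpn-2 move above 0, and pas-4 and rpn-5 are the 2 lowest in all 3 settings, between -0.46 and -0.35.

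Exons of 11 of the 33 subunit genes overlap exons of another gene in the WBcel235 annotation, 1 of them on the same strand (pbs-7), and the sources used here do not give the strand setting of the counting. Among the 5 genes at an unadjusted p under 0.05 this touches rpn-9, whose partner T06D8.12 was at 0 in every library, and rpt-6, whose partner glrx-5 averaged 408 normalized counts with and 396 without ascarosides (log2 fold change 0.07, adjusted p = 0.885 in limma). The values of pas-7, pbs-3, pbs-4, pbs-7, rpn-7, rpn-10, rpn-11, rpt-2 and rpt-4 are uncertain for the same reason. Of their partners, lact-2 (pas-7) and pqn-48 (rpn-11) were higher with ascarosides, with log2 fold changes of 0.40 and 0.29. That of rpn-7, nemt-1, was lower (-0.79) at a mean of 37.9 normalized counts. Treated and control values of these partners did not overlap, as for 9.53% of all genes lower and 9.78% higher. None of them had an adjusted p under 0.05 in limma, and the groups overlapped for the other partners.

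Genes that work in or with the proteasome but lie outside the symbol rule were described from a list of 9 genes (dss-1, usp-14, ubh-4, rad-23, ubql-1, psme-3, aip-1, ecps-1 and psmd-9), written with earlier results of these data known. None had an adjusted p under 0.05 in limma. At an unadjusted p under 0.05, 4 were lower and 1 was higher, where 7.13% of all genes were lower and 8.05% higher. The lowest was psme-3 (WBGene00013435), which encodes a proteasome activator that caps the core without ATP. Its normalized counts were 419, 409.7 and 451 in the treated libraries, against 511, 736 and 537 in the control libraries. The groups did not overlap, with a log2 fold change of -0.46 (adjusted p = 0.0907 in limma; 0.00963 to 0.351 over the alternatives). The higher gene was aip-1 (WBGene00000097), an arsenite-inducible gene whose product helps proteasomes under arsenite stress. Its normalized counts were 1049, 1105 and 911 in the treated libraries, against 680.0, 929 and 752 in the control libraries. The groups overlapped, with a log2 fold change of 0.38 (adjusted p = 0.133 in limma; 0.0196 to 0.475 over the alternatives).

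The other 3 lower genes of that list were chosen for mention after their values were seen. They were the deubiquitinase genes usp-14 and ubh-4, whose products bind the regulatory particle, with log2 fold changes of -0.25 and -0.27, and rad-23, which encodes a shuttle for ubiquitinated proteins, with -0.26. Adjusted p-values were 0.243, 0.231 and 0.239 in limma. Without control library 4, where 9.60% of all genes passed, they were 0.116 for usp-14, 0.0418 for ubh-4 and 0.0732 for rad-23. In each of these 3 genes all treated values lay below all control values, as they did for 9.53% of all genes.

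The gene of SKN-1A itself, skn-1, and genes that activate SKN-1A in worms (png-1, ddi-1, sel-1 and sel-11) had a median log2 fold change of 0.05 (-0.03 without treated library 2). With all libraries this median is the value of skn-1. Of the 5, 4 were above 0 and 0 had an adjusted p under 0.05 in limma (3.52% of all genes did). At an unadjusted p under 0.05, 1 gene was lower, where 7.13% of all genes were. For skn-1 (WBGene00004804), of which the table gives one value for all its isoforms, there were 1996, 2567 and 2327 normalized counts in the treated libraries, against 2454, 2131 and 2058 in the control libraries. The groups overlapped, with a log2 fold change of 0.05 (adjusted p = 0.893 in limma). The 1 lower gene was sel-11, which encodes a ubiquitin ligase of the endoplasmic reticulum, with a log2 fold change of -0.33 (adjusted p = 0.147 in limma).

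The unfoldase CDC-48, which hands ubiquitinated proteins to the proteasome, and its cofactors (cdc-48.1, cdc-48.2, ufd-1, npl-4.1, npl-4.2, ufd-2, ufd-3 and atx-3) had log2 fold changes below 0 for all 8 genes with all libraries (49.7% of all genes were below 0), with a median of -0.09. That number was 6 of 8 without control library 4, where cdc-48.1 was at 0.002 and cdc-48.2 at 0.02, and 6 of 8 without treated library 3. At an adjusted p under 0.05 there were 0 of 8 in limma (3.52% of all genes passed). At an unadjusted p under 0.05 there was 1, npl-4.2, where 7.13% of all genes were lower. The log2 fold change of npl-4.2 was -0.47 (adjusted p = 0.191 in limma). It was weakly expressed, with 96.9, 119.8 and 115 normalized counts in the treated libraries, against 138, 157 and 164 in the control libraries.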

How the data were processed

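Poly(A) RNA was sequenced as single reads. The authors aligned reads with tophat2 to Ensembl WBcel215 (the labels list WBcel235), counted reads on genes with HTSeq-count and divided each count by its library's DESeq size factor. These scaled values are the deposited signal. Versions and strand setting are not given in the sources used here. Columns name the group of a library and not its replicate number. The 5 lines of reads outside genes (33.1% to 41.8% of the column totals) were left out. Whole reads were recovered from each column's step (100% of values within 0.01 of a whole read). Gene names came from a name table (43623 of 46726 identifiers, 2741 more from WBcel235), and exon lengths and overlaps from WBcel235, without coordinates. Same-group libraries differed by more than sampling noise (chi-square per degree of freedom 12.2 to 47.7).

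Groups were compared with limma 3.58.1 in R 4.3.3 (eBayes with trend, two-sided) on log2(normalized count + 1), which understates changes of low genes, keeping genes whose mean was 5 or more, with Benjamini-Hochberg adjustment over all 14965. No p is given for sums or lists. The alternatives were edgeR 4.0.16 (quasi-likelihood, TMM) and DESeq2 1.42.0 (both run on recovered reads), a pseudocount of 0.5 or 5, no filter or a mean of at least 50, quantile or upper-quartile scaling, eBayes without trend or with robust, each library left out, and, added after the data were seen, removal of each library's length trend by loess. The fits were also run on simulated counts. These had no length trend and larger planted differences than those of the subunit genes, so they do not show how the fits perform here. With 3 libraries a group an exact two-sided permutation test of 1 gene cannot go under p = 0.1, so p-values rest on the spread shared across genes. The members, lists and naming rule were chosen with earlier results of these data known. The rule names with values in every library the 2 highest and 2 lowest genes of each subcomplex by log2 fold change, the catalytic, receptor and RPN-6 genes, rpn-11, and genes at an unadjusted p under 0.05. Plots used Python 3.11.15 and matplotlib 3.10.9.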

Additional observations from a re-analysis of the deposited data

How the results depend on the processing

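The 14 core and 19 regulatory genes were refitted under 11 alternatives with all libraries and with each of the 6 libraries left out. At an adjusted p under 0.05 the count was 1 core and 1 regulatory gene with quantile normalization, with DESeq2 and with the length trend removed, and 0 of each under the other 8 alternatives with all libraries. It ranged over the fits with one replicate left out from 0 to 1 core gene and from 0 to 2 regulatory genes, the highest without control library 4. At an unadjusted p under 0.05 there were 2 core genes without a filter, with quantile normalization and with the length trend removed (5.19%, 7.66% and 8.42% of all genes were lower), 6 regulatory genes with quantile normalization and 3 without the trend in eBayes (5.84%), and with one replicate left out from 1 to 8 core and from 2 (without treated library 1) to 7 regulatory genes (5.07% to 11.4% of all genes were lower). All genes at an adjusted p under 0.05 numbered 1 without the trend in eBayes, 217 when treated library 2 was left out and 1436 when control library 4 was, the lowest and highest of the 6 such fits. The cause was not tested. The median log2 fold change ranged over all alternatives from -0.22 to -0.05 for the core and from -0.16 to -0.08 for the regulatory particle.

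Signs changed for rpt-1 with quantile normalization (-0.043) and with one library left out for rpt-1 (-0.066 to 0.053), rpn-1 (-0.19 to 0.055), rpn-2 (-0.11 to 0.063), rpn-6.1 (-0.13 to 0.038), rpn-6.2 (-0.093 to 0.52), rpn-13 (-0.14 to 0.013), pbs-6 (-0.19 to 0.0039) and skn-1 (-0.034 to 0.15). Over all alternatives the sign changed for 10 of the 22 associated, SKN-1A and CDC-48 genes: skn-1, dss-1, ubql-1, ecps-1, png-1, ddi-1, cdc-48.1, cdc-48.2, ufd-1 and atx-3. No paired analysis was possible because no column says which numbered replicate it holds, so a replicate block could not be fitted. Depth of 12 to 42 reads a library limits rpn-6.2.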

Other observations

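Ubiquitin and the enzymes that load it had differences in both directions. Of 13 genes listed (ubq-1, ubq-2, uba-1, let-70, ubc-1, ubc-3, ubc-6, ubc-7, ubc-13, ubc-14, ubc-15, ubc-18 and ubc-20), 7 had a log2 fold change above 0 and 6 below, with a median of 0.002 (6 of the 13 changed sign in at least 1 alternative), and 0 had an adjusted p under 0.05 in limma. At an unadjusted p under 0.05 there was 1, ubc-13, where 7.13% of all genes were lower. This gene encodes an enzyme for ubiquitin chains of a non-degradative kind. Its normalized counts were 1343, 1169 and 1283 in treated libraries 1 to 3, against 1386, 1583 and 1539 in control libraries 4 to 6. Its log2 fold change was -0.25 (adjusted p = 0.275 in limma).

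The COP9 signalosome, a complex built on the same plan as the proteasome lid, had 6 genes listed (csn-1 to csn-6). Their log2 fold changes lay between -0.20 and 0.07, with a median of -0.02 (4 of the 6 changed sign in at least 1 alternative), against -0.13 for the 9 lid genes. None of the 6 had an adjusted or unadjusted p under 0.05 in limma, and treated and control values overlapped for all 6.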
